A study of Drosophila melanogaster with 11 samples.

Results

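RNA levels of 9 genes of the epidermal growth factor receptor (EGFR) pathway were followed in larval tissues of Drosophila melanogaster. The genes are the receptor Egfr, the ligands spi, vn and Krn, the ligand protease gene rho, the transcription factor gene pnt, and the inhibitor genes aos, sty and kek1. They were taken by symbol from a table of raw counts with 16034 entries, of which 11021 carried a symbol, and all 9 were found. The mutant libraries came from larvae homozygous for the dCap-D3 allele c07081 in a w background, and the wild-type libraries from w1118 larvae, so that both genotypes carry a mutation of white. Wing discs gave 2 mutant and 3 wild-type libraries, and salivary glands gave 3 mutant and 3 wild-type libraries. All larvae were in the third instar and were kept at 25 C. Each salivary library pooled 50 tissues and each wing library 150, and the wing libraries were directional while the salivary libraries were not. The labels name 1 mutant allele, and they leave unsaid if the libraries of 1 group were separate cultures, and each p-value therefore measures the spread between these libraries only. The gene dCap-D3 encodes part of condensin II, which compacts and organises chromosomes.

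In flies the ligands Spitz, Keren and Vein bind the EGF receptor, a tyrosine kinase that signals through Ras and the MAP kinase chain to transcription factors such as Pointed. Spitz and Keren are made as membrane-bound precursors that rhomboid proteases cut, whereas Vein is secreted, and Argos, Sprouty and Kekkon-1 dampen the signal, their genes being known targets of the pathway in several tissues. In the wing disc the pathway patterns the veins and the notum and supports growth and survival. The larval salivary gland grows by endoreplication into large polytene cells and secretes glue proteins.

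The libraries held 52483185 to 157639957 counts, the deepest being wing wild-type replicate 3. CPM below are counts brought to a common library size within a tissue, with edgeR's trimmed mean of M-values as the scaling, and a gene is said to have risen, fallen or changed where its Benjamini-Hochberg adjusted p in edgeR's quasi-likelihood F-test, taken over all genes of the comparison, was at most 0.05. Cap-D3 itself averaged 2.77 ± 0.223 CPM in mutant wing discs and 18.6 ± 6.63 CPM in wild-type wing discs (SD, n = 2 and 3), with a log2 fold change of -2.75 ± 0.38 (SE) that missed the threshold (adjusted p = 0.0916). In salivary glands Cap-D3 averaged 0.0577 ± 0.00771 CPM in the mutant and 4.79 ± 0.422 CPM in wild type (SD, n = 3 each), and it fell (log2 fold change -6.33 ± 0.22, adjusted p = 1.43e-04). The mutant glands held 3, 4 and 4 Cap-D3 counts, close to the bottom of the measured range. Markers of the labelled tissues were present: 12 imaginal disc markers summed to 1151 to 1213 CPM in mutant and 754 to 1885 CPM in wild-type wing discs, and 8 salivary gland markers to 123359.5 to 170275 CPM in mutant and 188008 to 232487 CPM in wild-type glands. Some libraries stood apart. Gut markers summed to 661 and 5166 CPM in salivary wild-type replicates 1 and 2, against at most 2.92 CPM in the other 4 salivary libraries, and fat body markers to 16100.3 CPM in wing wild-type replicate 2, against 1657 to 4262 CPM in the other 4 wing libraries. Wing wild-type replicate 3 is numbered 59 where the other libraries carry neighbouring numbers, and the labels do not say if it was prepared or sequenced apart.

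In mutant salivary glands the receptor gene rose and its main ligand gene fell. Of the 9 genes, 1 rose and 1 fell. Over the 9006 genes tested 5.71% rose and 4.96% fell, 10.7% in all, and the median log2 fold change of the 9 was -0.28 against -0.04 over all genes tested. Egfr (FBgn0003731, 2R, 21522420 to 21559977 on BDGP6, plus strand), which encodes the receptor, stood at 95.1, 133 and 122 CPM in mutant glands and at 64.3, 58.4 and 66.7 CPM in wild-type glands. Every mutant library lay above every wild-type library. The log2 fold change was 0.88 ± 0.15 (adjusted p = 0.0207), a level 1.85 times that in wild type. On the opposite strand Egfr overlaps CG30286, CG30283, CG30287, CG33226 and lncRNA:CR44725, without sharing exon bases with them. The ligand gene spi (FBgn0005672, 2L, 19567900 to 19577315, minus strand) stood at 16.2, 15.8 and 17.9 CPM in mutant glands and at 23.4, 25.0 and 23.3 CPM in wild-type glands. Here every mutant library lay below every wild-type library, with a log2 fold change of -0.52 ± 0.09 (adjusted p = 0.0176), a level 0.695 times that in wild type. These calls lie near the threshold: Egfr lost its call without mutant replicate 2, mutant replicate 3 or any of the wild-type libraries (adjusted p = 0.0570 to 0.0878), and spi without mutant replicate 2, mutant replicate 3, wild-type replicate 2 or wild-type replicate 3 (adjusted p = 0.0614 to 0.0767). Both calls also ended when all 11 libraries shared 1 fit (adjusted p = 0.193 for Egfr and 0.0722 for spi). In the fits that lost a call the log2 fold changes were 0.80 to 0.94 for Egfr and -0.54 to -0.46 for spi. These fits reuse the same libraries, whose ranges were separate, so the kept direction is no further support.

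The other ligand genes did not change beyond their spread in salivary glands. Krn (FBgn0052179, 3L, 17649562 to 17654280, minus strand), which encodes a ligand like Spitz, stood at 4.58, 6.74 and 5.49 CPM in mutant glands and at 4.57, 5.86 and 5.39 CPM in wild-type glands. Its log2 fold change was 0.09 ± 0.18 (adjusted p = 0.778), and 289 bases of its exons are shared with Ndfip on the same strand, so that part of its reads cannot be assigned with certainty. The gene vn (FBgn0003984, 3L, 5813338 to 5845664, minus strand), which encodes the neuregulin-like ligand Vein, was close to the bottom of the measured range, at 21, 41 and 15 counts in mutant glands and 55, 58 and 31 counts in wild-type glands. That is 0.360, 0.566 and 0.249 CPM in the mutant and 0.989, 1.05 and 0.539 CPM in wild type, and the groups overlapped because the highest mutant library exceeded the lowest wild-type one (log2 fold change -1.13 ± 0.45, adjusted p = 0.159). The protease gene rho (FBgn0004635, 3L, 1463811 to 1468944, plus strand), whose product releases active Spitz, stood at 2.20, 2.42 and 2.62 CPM in mutant glands and at 3.20, 3.25 and 2.07 CPM in wild-type glands. Its groups overlapped as well (log2 fold change -0.24 ± 0.22, adjusted p = 0.520), and without wild-type replicates 1 and 2, the libraries with gut markers, the value was 0.22 ± 0.275 (adjusted p = 0.833). The gene rho lies within Ptp61F on the opposite strand without sharing exon bases with it.

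**Figure D1:**
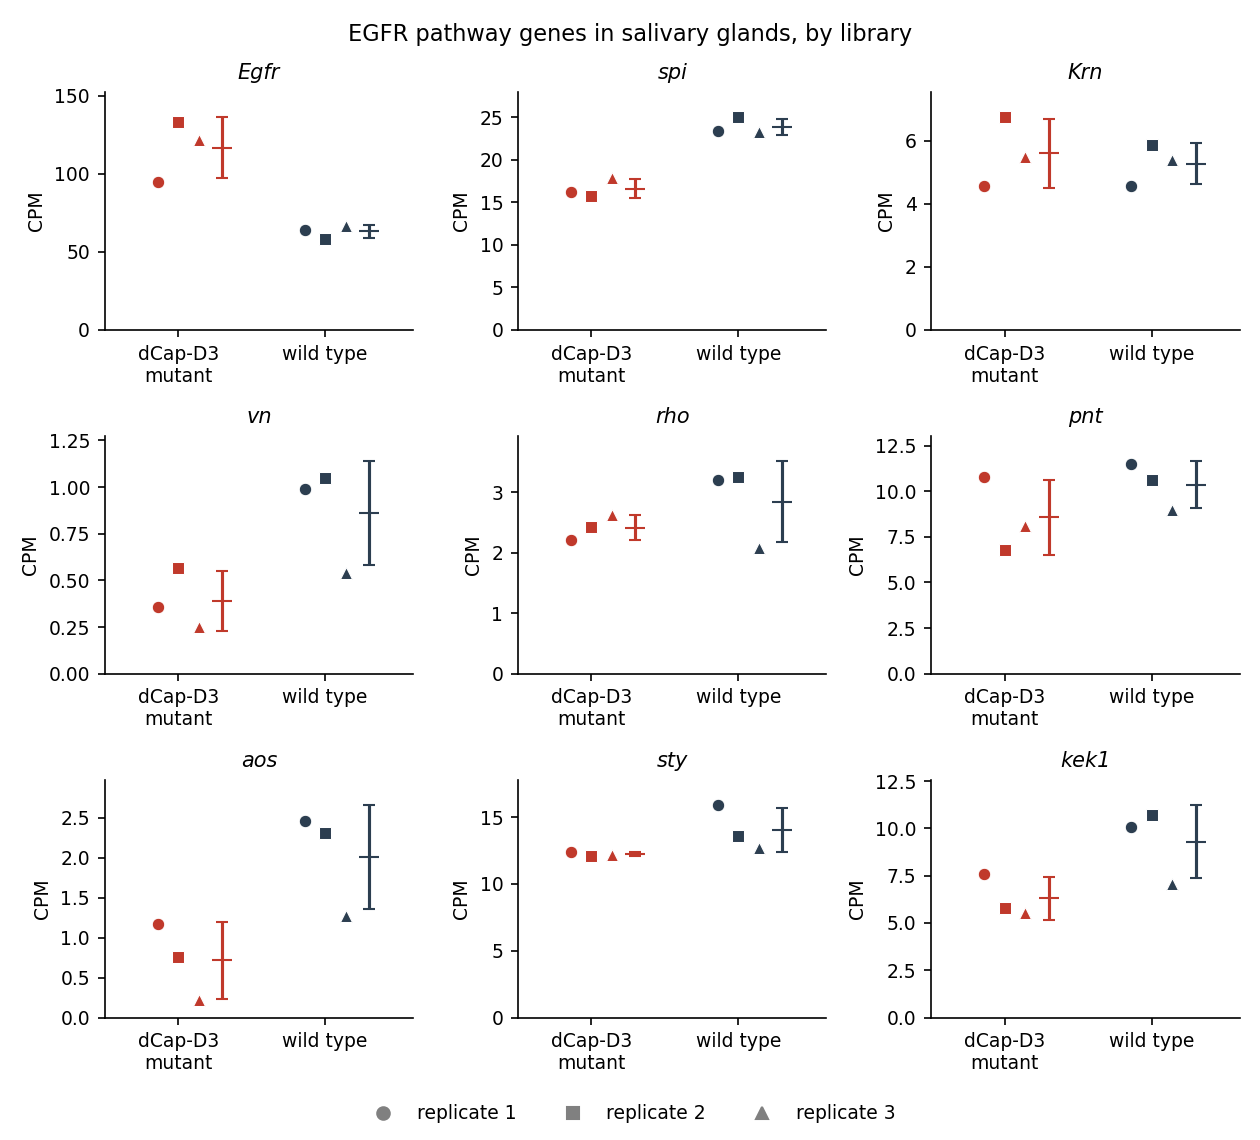
CPM (vertical axes, from 0) of the 9 EGFR pathway genes in salivary glands, with 1 point per library, mutant left of wild type, and a horizontal mark with bars for the mean ± SD (n = 3 each). Egfr is higher in all 3 mutant libraries (95.1 to 133 against 58.4 to 66.7 CPM) and spi lower in all 3 (15.8 to 17.9 against 23.3 to 25.0 CPM), while mutant and wild-type libraries overlap for Krn, vn, rho, pnt and kek1.

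The transcription factor gene and the 3 inhibitor genes had negative log2 fold changes in salivary glands, and each missed the threshold. The gene pnt (FBgn0003118, 3R, 23290231 to 23346167, minus strand) encodes the ETS activator at the end of the chain and stood at 10.8, 6.80 and 8.09 CPM in mutant glands and at 11.5, 10.6 and 8.97 CPM in wild-type glands (log2 fold change -0.28 ± 0.19, adjusted p = 0.388). The gene aos (FBgn0004569, 3L, 16470386 to 16483650, minus strand) encodes Argos, a secreted protein that binds Spitz, and had 68, 55 and 13 counts in mutant glands and 137, 127 and 73 counts in wild-type glands. On the CPM scale these were 1.17, 0.760 and 0.216 in the mutant and 2.46, 2.31 and 1.27 in wild type, so the ranges were separate, but the mutant libraries themselves differed by 5.42 times between the highest and the lowest. The log2 fold change of aos was -1.49 ± 0.62 (adjusted p = 0.174), and aos lies within CG33158 on the opposite strand without shared exon bases. The gene sty (FBgn0014388, 3L, 3401153 to 3424935, minus strand), for the intracellular inhibitor Sprouty, stood at 12.4, 12.1 and 12.2 CPM in mutant glands and at 15.9, 13.6 and 12.7 CPM in wild-type glands. Its ranges were separate by a small margin (log2 fold change -0.20 ± 0.11, adjusted p = 0.254). The gene kek1 (FBgn0015399, 2L, 12817000 to 12822787, minus strand) encodes a leucine-rich repeat membrane protein that inhibits the receptor, and it stood at 7.59, 5.77 and 5.54 CPM in mutant glands and at 10.1, 10.7 and 7.08 CPM in wild-type glands. Its groups overlapped (log2 fold change -0.56 ± 0.20, adjusted p = 0.134). In all, mutant and wild-type ranges were separate for 4 of the 9 genes, 1 higher and 3 lower in the mutant. Over all genes tested the ranges were separate for 36.4%, with 17.4% higher and 19.0% lower.

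The rest of the pathway was covered by 26 further genes, of which 2 rose and 1 fell in mutant salivary glands. These 3 are 11.5% of the 26, near the 10.7% called over all genes tested, so the count does not set the list apart. Star (S), which escorts Spitz out of the endoplasmic reticulum, stood at 26.8, 33.5 and 30.8 CPM in mutant glands and at 20.1, 19.6 and 20.8 CPM in wild-type glands, and it rose (log2 fold change 0.59 ± 0.11, adjusted p = 0.0220). The inhibitor gene Spred, related to sprouty, stood at 16.0, 28.9 and 21.3 CPM in mutant glands and at 11.8, 9.82 and 11.6 CPM in wild-type glands, and it also rose (log2 fold change 1.0 ± 0.22, adjusted p = 0.0431). RasGAP1, whose product switches off Ras, stood at 4.81, 5.23 and 4.39 CPM in mutant glands and at 8.67, 8.59 and 7.34 CPM in wild-type glands, and it fell (log2 fold change -0.77 ± 0.12, adjusted p = 0.0157). For each of these 3 genes the mutant and wild-type libraries were fully separate, but S and Spred lost their calls without any library other than mutant replicate 1 (adjusted p = 0.0565 to 0.142), and RasGAP1 lost its call without mutant replicate 2, mutant replicate 3 or wild-type replicate 2 (adjusted p = 0.0593 to 0.0791) and with library totals as the scaling (adjusted p = 0.0525). When all 11 libraries shared 1 fit the 3 calls ended, with an adjusted p of 0.261 for S, 0.0551 for Spred and 0.309 for RasGAP1.

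Of 11 genes for adaptors and the Ras to MAP kinase chain, 0 passed edgeR's quasi-likelihood test in salivary glands and 3 had an unadjusted p under 0.05. The log2 fold changes of the 11 ran from -0.52 to 0.34. Over all 9006 genes tested, 2650 had an unadjusted p under 0.05 in that test. Of all genes tested, the likelihood ratio test called 1408 and DESeq2 2091. Of the 11 the likelihood ratio test called 0 and DESeq2 called 1, the adaptor gene Shc. The most abundant by CPM, the Ras gene Ras85D, stood at 53.5, 58.6 and 56.6 CPM in mutant glands and at 50.2, 56.8 and 49.2 CPM in wild-type glands (log2 fold change 0.11 ± 0.10, adjusted p = 0.506). Of 3 genes for ETS and Capicua factors, 0 passed the quasi-likelihood test, 1 had an unadjusted p under 0.05, and DESeq2 called that gene, edl. Among the 3 genes aop, which encodes the ETS repressor Yan, varied widely within each genotype, at 22.0, 93.2 and 49.2 CPM in mutant glands and at 33.5, 85.9 and 63.5 CPM in wild-type glands (log2 fold change -0.15 ± 0.57, adjusted p = 0.882). Of 6 genes for ligands and their processing, S was the 1 that rose, and DESeq2 also called rho-4 (log2 fold change 0.27 ± 0.10 and adjusted p = 0.130 in the quasi-likelihood test). Of 6 inhibitor genes, Spred rose and RasGAP1 fell. Mkp3, which encodes a phosphatase that acts on the MAP kinase, was called by the likelihood ratio test and DESeq2 but missed the threshold in the quasi-likelihood test (log2 fold change 1.25 ± 0.44, adjusted p = 0.123). It stood at 13.7, 17.2 and 42.4 CPM in mutant glands and at 9.10, 11.3 and 10.3 CPM in wild-type glands, so that the ranges were separate and mutant replicate 3 was far above the other libraries.

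Summed disc, trachea and muscle markers were lower in every mutant salivary library than in every wild-type one. Hemocyte and fat body sums overlapped between the genotypes. Over all genes tested in salivary glands, 5.71% were called higher and 4.96% lower. Disc markers summed to 38.6 to 56.7 CPM in mutant and 73.2 to 90.2 CPM in wild-type glands, with 4 of 12 lower and 0 higher, and in mutant replicates 2 and 3 they included 2 and 3 genes at or under 3 counts. Trachea markers summed to 23.2 to 28.4 CPM in mutant and 44.7 to 57.5 CPM in wild-type glands, with 2 of 5 lower. Muscle markers summed to 58.3 to 94.4 CPM in mutant and 103 to 137 CPM in wild-type glands, with 2 of 7 tested lower, and hemocyte markers to 50.4 to 73.0 CPM in mutant and 57.7 to 82.9 CPM in wild-type glands, with 1 of 6 higher and 2 lower. Fat body markers summed to 85768 to 135179 CPM in mutant and 69957 to 105589 CPM in wild-type glands, with 2 of 6 higher, gut markers had 1 of 4 tested lower, and 3 of 8 salivary gland markers were lower. The part of these tissues in the salivary values of the 9 genes, of which 7 had negative log2 fold changes, was not tested. In pooled tissue, fewer cells of a type and less RNA per cell cannot be told apart. With wild-type replicates 1 and 2 left out, 1 wild-type library remains and is assumed to vary like the mutant libraries, and 0.964% of all genes tested were called. In that fit the log2 fold change was 0.80 ± 0.286 for Egfr (adjusted p = 0.388) and -0.49 ± 0.153 for spi (adjusted p = 0.322). The other negative values were nearer 0 than with all libraries, at -0.83 ± 0.928 for aos, -0.46 ± 0.706 for vn, -0.17 ± 0.236 for kek1, -0.07 ± 0.290 for pnt and -0.06 ± 0.133 for sty.

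In wing discs edgeR's quasi-likelihood test called 0 of the 9 genes, where it called 0.475% of the 9689 genes tested. The likelihood ratio test and DESeq2 also called 0 of the 9, against 464 and 583 of all genes tested. In the quasi-likelihood test 1 of the 9, rho, had an unadjusted p under 0.05, as did 924 of all genes tested. The gene rho stood at 10.6 and 11.7 CPM in mutant discs and at 6.98, 5.88 and 7.99 CPM in wild-type discs. Both mutant libraries lay above all wild-type libraries, and the log2 fold change of 0.68 ± 0.22 missed the threshold over all genes (adjusted p = 0.376). With wing wild-type replicates 2 and 3 left out, rho had a log2 fold change of 0.67 ± 0.129 and an adjusted p of 0.0232. The spread in that fit comes from the 2 mutant libraries alone, the 1 wild-type library is assumed to vary like them, and 14.3% of all genes tested were called. The ligand gene spi stood at 284 and 269 CPM in mutant discs and at 250.1, 196 and 198 CPM in wild-type discs, also without overlap (log2 fold change 0.37 ± 0.18, adjusted p = 0.690). Non-overlap in either direction was found for 2 of the 9 genes, both higher in the mutant, and for 26.1% of all genes tested, 14.4% being higher.

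Egfr, by contrast, stood at 224 and 207 CPM in mutant discs and at 222, 139 and 469 CPM in wild-type discs. The 2 mutant libraries lay between wild-type replicates 2 and 3 and close to replicate 1 (log2 fold change -0.36 ± 0.54, adjusted p = 1), and without replicate 3 the log2 fold change was 0.24. The inhibitor gene kek1 showed the same arrangement, at 97.3 and 98.3 CPM in mutant discs and at 97.3, 52.7 and 199 CPM in wild-type discs (log2 fold change -0.25 ± 0.57), and so did vn, at 22.0 and 19.1 CPM in mutant discs and at 25.2, 10.6 and 37.6 CPM in wild-type discs (-0.25 ± 0.54). The remaining genes had log2 fold changes near 0. The values were 0.16 ± 0.19 for Krn, 0.01 ± 0.26 for aos, -0.05 ± 0.37 for pnt and -0.03 ± 0.40 for sty, each with an adjusted p of 1. The median log2 fold change of the 9 genes was -0.03, as it was over all genes tested. That overall median varied with gene length, as given below. Of the 25 further pathway genes tested in wing discs, 0 passed the quasi-likelihood test, the likelihood ratio test or DESeq2. In the quasi-likelihood test 2 of them (rho-4 and Spred) had an unadjusted p under 0.05, as did 924 of all 9689 genes tested. Spred stood at 64.1 and 61.0 CPM in mutant discs and at 37.4, 20.8 and 37.8 CPM in wild-type discs (log2 fold change 0.97 ± 0.31, adjusted p = 0.383 in the quasi-likelihood test). The rhomboid-related gene rho-4 stood at 97.8 and 101 CPM in mutant discs and at 69.7, 67.6 and 81.8 CPM in wild-type discs (log2 fold change 0.44 ± 0.17, adjusted p = 0.518). For these 2 genes both mutant libraries lay above all wild-type libraries. The most abundant genes of the other lists were Ras85D (0.19 ± 0.14), aop (-0.11 ± 0.44) and the kek1-related gene kek5 (-0.48 ± 0.70), each with an adjusted p of 1.

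**Figure D2:**
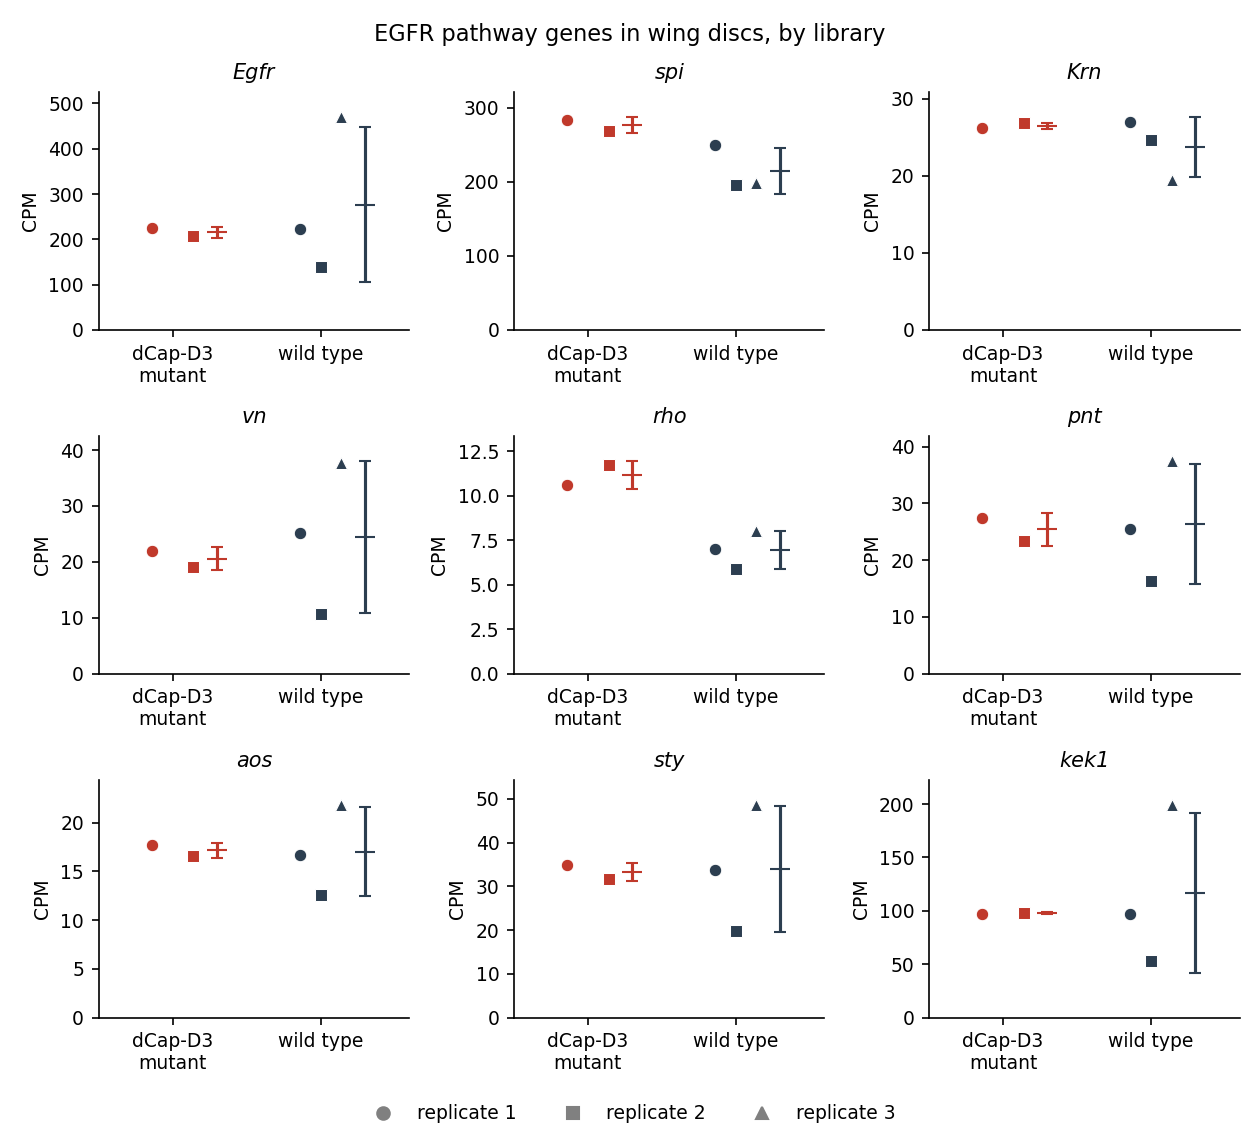
CPM (vertical axes, from 0) of the 9 EGFR pathway genes in wing discs, with 1 point per library, mutant left of wild type, and a horizontal mark with bars for the mean ± SD (n = 2 mutant and 3 wild-type libraries). Wild-type replicate 3 (triangle) is the highest library for Egfr at 469 CPM and for kek1 at 199 CPM but the lowest for Krn at 19.5 CPM, and rho (10.6 and 11.7 against 5.88 to 7.99 CPM) and spi (269 and 284 against 196 to 250.1 CPM) are higher in both mutant libraries.

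The spread among wild-type wing libraries followed gene length, and the 9 genes lay along that trend. Exon length was known for 94.6% of the genes tested in wing discs. Over all of these, split into 5 length classes, the median log2 ratio of wild-type replicate 3 over the mean of replicates 1 and 2 was -0.73 in the shortest class, then -0.40, -0.08 and 0.34, and 1.03 in the longest. Among the 9 genes the ratio was lowest for Krn (1354 bp of exon), at -0.40, and for spi (1817 bp), at -0.16. It was 0.30 for rho (3000 bp) and 0.57 for aos (2822 bp). The long genes had the highest ratios, 0.86 for pnt (6119 bp), 0.90 for sty (5438 bp), 1.17 for vn (5239 bp), 1.41 for Egfr (6947 bp) and 1.47 for kek1 (5788 bp). Wild-type replicate 2 over replicate 1 ran the other way, with medians from 0.28 in the shortest class to -0.49 in the longest, whereas the mutant mean over wild-type replicate 1 had medians between -0.05 and 0.02 in the 5 classes. Wing log2 fold changes of mutant over wild type had medians of 0.03, 0.05, 0.03 and -0.04, and of -0.29 in the longest class. In that class Egfr had -0.36, kek1 -0.25, vn -0.25, pnt -0.05 and sty -0.03. Salivary log2 fold changes had medians between -0.08 and -0.01 across length classes. With offsets fitted to exon length in each library, a correction chosen after the trend was seen, Egfr had a wing log2 fold change of 0.01 ± 0.0683 (adjusted p = 0.940) and rho of 0.70 ± 0.119 (adjusted p = 0.0600), and 0 of the 9 genes passed the threshold.

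**Figure D3:**
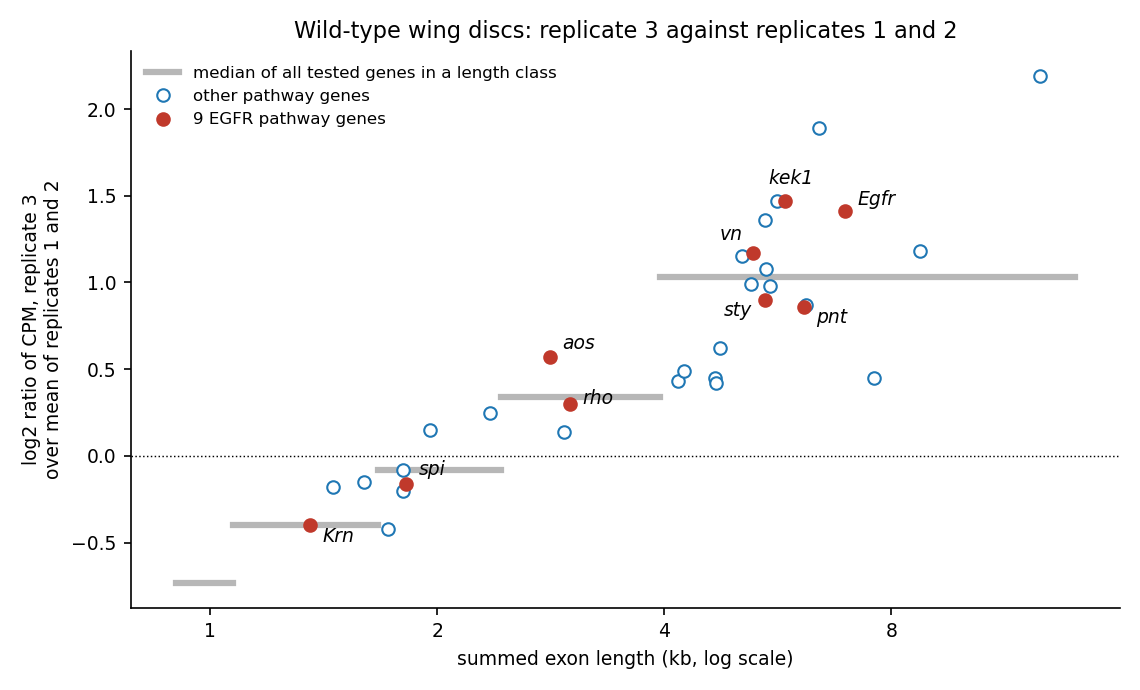
Log2 ratio of CPM in wing wild-type replicate 3 over the mean of wild-type replicates 1 and 2 (vertical axis) against summed exon length in kb (horizontal axis, log scale), with filled points for the 9 genes, open points for other pathway genes and grey bars for the median of all tested genes in 5 length classes. The ratio climbs with length, from -0.40 for Krn to 1.41 for Egfr and 1.47 for kek1, alongside class medians of -0.73 in the shortest class and 1.03 in the longest.

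The difference between tissues was tested directly, as the mutant effect in wing discs minus the mutant effect in salivary glands. Cap-D3 itself was called here, with a difference of 3.45 ± 0.47 (adjusted p = 0.0121 in the quasi-likelihood test). Its mutant level was 0.149 times that of wild type in wing discs and 0.0125 times in salivary glands. The tissues were therefore not compared at equal loss of Cap-D3 RNA. Of the 9 genes 0 passed the threshold in edgeR's quasi-likelihood test or its likelihood ratio test. Of the 10850 genes tested, the first called 0.848% and the second 525. In the quasi-likelihood test 3 of the 9 (Egfr, spi and rho) had an unadjusted p under 0.05, as did 1412 of all genes tested. Ligand gene spi had a difference of 0.75 ± 0.21 (adjusted p = 0.150), with both wing mutant libraries above every wing wild-type library and all salivary mutant libraries below every salivary wild-type library. For Egfr the difference was -1.41 ± 0.61 (adjusted p = 0.370), and it became -0.69 ± 0.287 without wing wild-type replicate 3 (adjusted p = 0.282), in a range of -1.62 to -0.69 when 1 library was left out. The gene rho had a difference of 0.76 ± 0.33 (adjusted p = 0.373) and aos of 1.33 ± 0.74 (adjusted p = 0.505). The other 5 genes had differences between -0.06 and 0.69. DESeq2 called spi (difference 0.85 ± 0.191, adjusted p = 5.88e-04), and the length-corrected fit called spi (0.86 ± 0.176, adjusted p = 0.0394) and Egfr (-0.94 ± 0.183, adjusted p = 0.0330). Both called more genes than the main fit, at 616 for DESeq2 and 266 for the length-corrected fit, of the 10850 tested. Of the 26 further pathway genes, 0 passed the threshold here or in the likelihood ratio test or DESeq2, and 2 (Shc and Mkp3) had an unadjusted p under 0.05. The most abundant of each list had differences of 0.04 ± 0.23 (rho-4), -0.06 ± 0.20 (Ras85D), -0.12 ± 0.85 (aop) and -0.93 ± 0.78 (kek5).

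**Figure D4:**
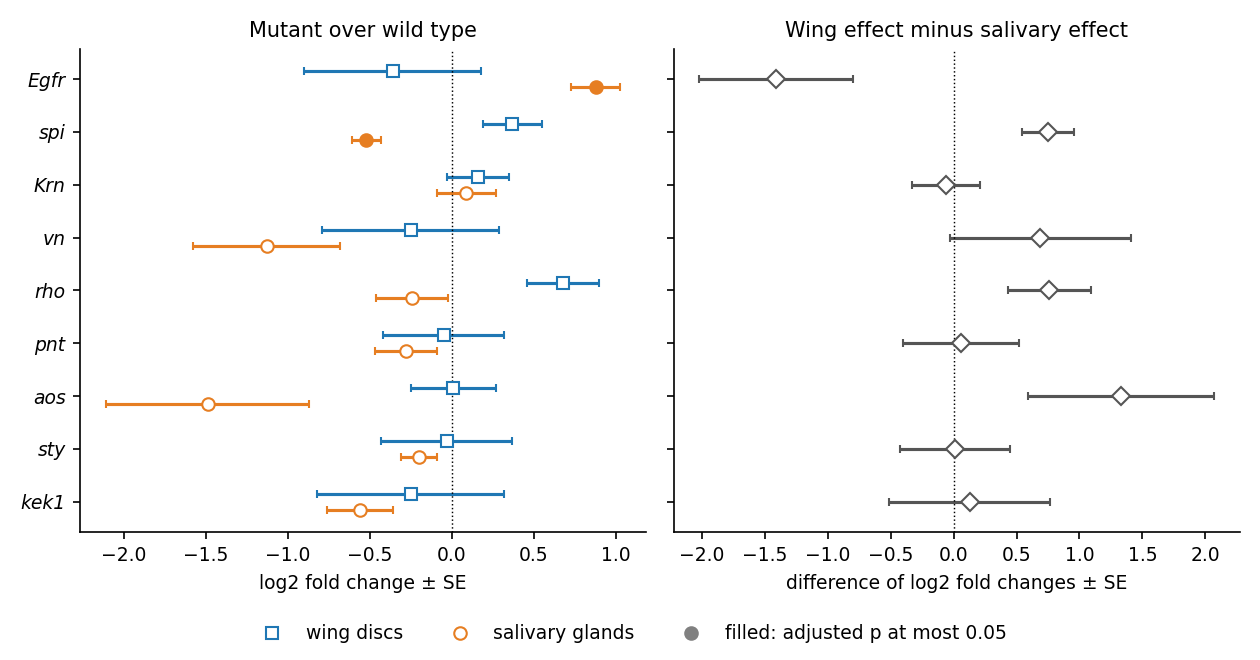
Left, log2 fold change of mutant over wild type ± SE for the 9 genes in wing discs (squares) and salivary glands (circles), filled where the adjusted p was at most 0.05. Right, the wing value minus the salivary value in the joint fit ± SE. Egfr (0.88) and spi (-0.52) are the filled points, both in salivary glands, and the bars of the wing values are widest for kek1, Egfr and vn.

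Levels of the 9 genes were then compared between tissues in wild type, where tissue and kind of library cannot be told apart. Fat body markers summed to 69957 to 105589 CPM in wild-type salivary and 1657 to 16100.3 CPM in wild-type wing libraries. Gut markers were present in salivary wild-type replicates 1 and 2. The part of such tissues in the levels here and per kb below was not tested. Of the 9 genes, 5 were higher in wing discs, against 40.2% of the 9720 genes tested that were higher, 30.2% that were lower and 70.4% that differed either way. The median log2 ratio of wing over salivary was 0.94 for the 9 genes and 0.28 for all genes tested. That overall median depended on the scaling, at 0.03 with RLE size factors and 1.56 with library totals. With library totals 5997 genes were higher and 1718 lower in wing discs, against 3911 and 2935 in the main scaling. Subtracting the median of all genes removes a shift shared by all genes, so likeness of these 3 scalings after subtraction is no test. Relative to that median vn differed most, with a log2 ratio of 3.35 (3.63 ± 0.56 before subtraction, adjusted p = 0.00167). After it came kek1 at 2.17 (2.45 ± 0.53, adjusted p = 0.00670), spi at 1.66 (1.94 ± 0.19, adjusted p = 2.95e-04), aos at 1.60 (1.88 ± 0.35, adjusted p = 0.00347) and Krn at 0.66 (0.94 ± 0.19, adjusted p = 0.00462). Egfr had 0.65 relative to the median (0.93 ± 0.47, adjusted p = 0.124). Before subtraction the Egfr value was 0.24 ± 0.208 without wing wild-type replicate 3 (adjusted p = 0.328), in a range of 0.24 to 1.15 when 1 library was left out, and the RLE size factors, the likelihood ratio test and DESeq2 did not call it (adjusted p = 0.223, 0.101 and 0.208). Egfr was called without wing wild-type replicate 2 (adjusted p = 0.0227), with the length correction (2.23e-04), with library totals (0.00590) and when all 11 libraries shared 1 fit (0.0411). The genes rho, pnt and sty stood at -0.20, -0.14 and -0.22 relative to the median. None of these 3 was called (adjusted p of 0.813, 0.721 and 0.880), and before subtraction their values of 0.08, 0.14 and 0.06 became -0.18, -0.13 and -0.21 with RLE size factors. With length-corrected offsets pnt and sty turned to 0.40 and 0.18 relative to the median, and rho stood at -0.05.

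Levels of different genes were compared per kb of summed exon length, with CPM scaled over all 11 libraries. In wild-type wing discs spi led with 76.8 ± 9.82 CPM per kb, followed by Egfr at 26.6 ± 18.0, kek1 at 13.4 ± 9.39 and Krn at 11.4 ± 1.31 CPM per kb (SD, n = 3). The range of spi was separate from that of Egfr, while Egfr, kek1 and Krn overlapped their neighbours. The other 5 genes lay between 1.52 CPM per kb for rho and 4.14 CPM per kb for sty, and each overlapped its neighbour in that order. In mutant wing discs the order began with spi at 94.1 ± 4.77, Egfr at 19.2 ± 1.24 and Krn at 12.1 ± 0.0665 CPM per kb (SD, n = 2).

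In salivary glands the leading pair changed places between genotypes. Egfr led in mutant glands, at 25.0 ± 4.30 CPM per kb against 13.6 ± 0.780 for spi, whereas in wild-type glands Egfr, at 13.0 ± 1.40 CPM per kb, came after spi, at 18.7 ± 0.854 (SD, n = 3 each), with separate ranges in both genotypes. The ratio of Egfr to spi per length was 1.54, 2.20 and 1.78 in mutant glands and 0.720, 0.612 and 0.748 in wild-type glands, so it was above 1 in every mutant library and below 1 in every wild-type library. This ratio joins the 2 genes called above in the same libraries, so its separation by genotype is no further result. Its place against 1 also depends on the exon lengths used. In wing discs the same ratio was 0.206 and 0.202 in the mutant and 0.232, 0.186 and 0.620 in wild type, the last value being replicate 3. Below this pair the salivary order of means was the same in both genotypes from Krn through sty, pnt, kek1, rho and aos to vn. Some neighbours overlapped, namely kek1 with pnt in both genotypes, vn with aos in the mutant and aos with rho in wild type. In wild-type glands it ran from 5.55 CPM per kb for Krn to 0.231 for vn.

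Among the ligand genes spi made up most of the summed level per length in each group. The share of spi was 86.5% ± 0.400 in mutant wing discs and 83.9% ± 0.640 in wild-type wing discs (SD, n = 2 and 3), with both mutant libraries above all wild-type ones. In salivary glands the share of spi was 66.9% ± 5.05 in the mutant and 75.2% ± 1.59 in wild type (SD, n = 3 each), with every mutant library below every wild-type library. These shares use the same spi values as the salivary call above. Krn made up most of the rest, with 30.1% in mutant glands and 22.2% in wild-type glands, and 11.1% in mutant and 12.5% in wild-type discs. The share of vn was 0.546% in mutant and 0.935% in wild-type glands, and 2.23% in mutant and 3.34% in wild-type discs. The ligand gene grk, known for its role in the ovary, stayed at or below 3.05% in every library.

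**Figure D5:**
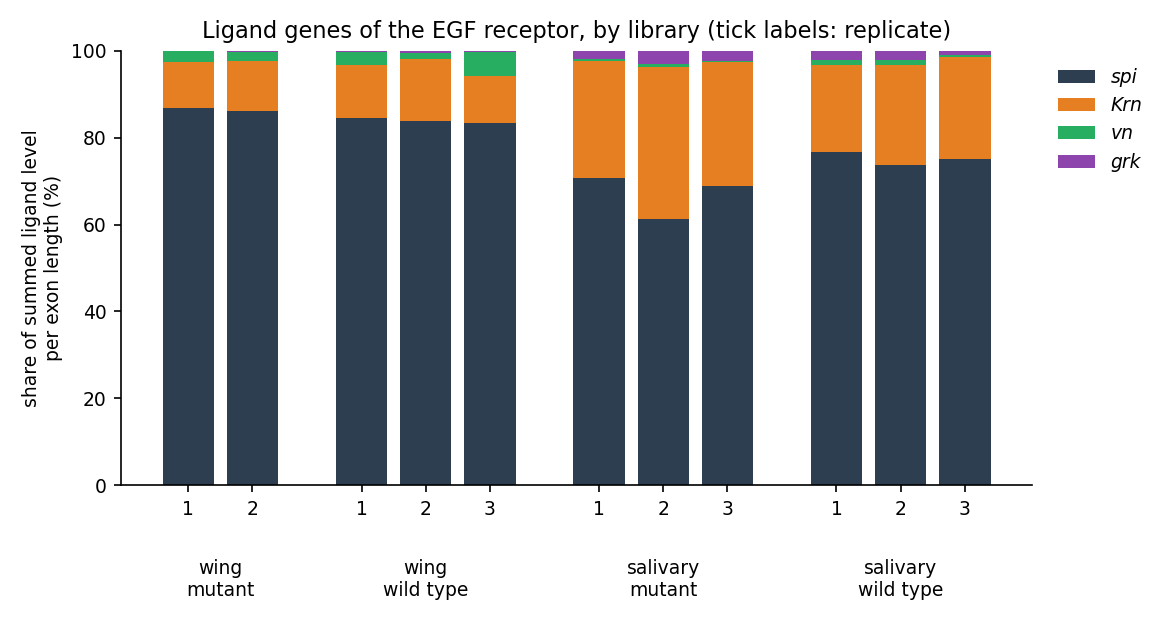
Share of each ligand gene in the summed ligand level per exon length (percent, vertical axis from 0), with 1 bar per library, grouped by tissue with mutant left of wild type. The share of spi is 86.2 and 86.8 in mutant and 83.3 to 84.6 in wild-type wing discs, and it averages 66.9 in mutant and 75.2 in wild-type salivary glands, where Krn takes up most of the difference.

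The genes whose levels ran most closely with Egfr were sought by Pearson correlation of log2(CPM + 0.5) over the 11 libraries, with each tissue's mean subtracted, among 5157 genes with a mean of at least 5 CPM in each tissue. The first 3 were mew (r = 0.987), which encodes an integrin alpha subunit, ncm (r = 0.986) and shtd (r = 0.984). The 11 libraries share tissue, genotype, depth and the length trend in wing discs, and the 3 genes have exons of 5204, 4231 and 6481 bp. In salivary glands shtd rose in the mutant (log2 fold change 0.82 ± 0.14, adjusted p = 0.0172), while mew (0.69 ± 0.18, adjusted p = 0.0624) and ncm (0.51 ± 0.13, adjusted p = 0.0631) missed the threshold. The 3 genes were picked for likeness to Egfr in these same libraries, so a salivary shift like that of Egfr was part of the choice.

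The authors' deposited table called other members than the fits above. In wing discs the values in the authors' deposited table had the other sign for 4 of the 9 genes, at 0.08 for vn, 0.13 for pnt, 0.17 for sty and 0.13 for kek1, and -0.02 for Egfr, where the fit above gave -0.36. In salivary glands the authors' deposited table had the other sign for 1 of the 9 genes, Krn, at -0.02. In the authors' deposited table for wing discs, rho was the 1 member at a false discovery rate of at most 0.05 (log2 fold change 0.73, false discovery rate 0.00874), where 13.1% of 11021 genes were. Spred had a log2 fold change of 1.07 and a false discovery rate of 3.08e-04 in the authors' deposited table for wing discs. In the authors' deposited table for salivary glands, aos was the 1 member at that rate (log2 fold change -1.44, false discovery rate 0.0280), where 16.5% of genes were. Egfr had a log2 fold change of 0.80 (false discovery rate 0.117) and spi of -0.57 (false discovery rate 0.327) in the authors' deposited table for salivary glands.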

How the data were processed

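The authors deposited a table of raw counts per gene for 11 libraries, not normalized per the file headers. From the submitters' processing notes come the build BDGP6 and the tools HTSeq 0.6.1, TopHat2 2.0.8b, BWA, Picard 1.119, Trim Galore 0.3.3 and FastQC 0.11.3. The role of each tool and the use of strand in counting are not stated there. The authors' comparison tables, per the file headers, list for each gene a fold change on the log2 scale, a mean CPM on the log2 scale, a likelihood ratio score and a p-value with its false discovery rate; the software is not stated.

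Since the kind of library differs between tissues, each was fitted apart, using R 4.3.3 and edgeR 4.0.16. Genes passed filterByExpr (minimum count 10, minimum total 15), were scaled by edgeR's TMM factors and tested by its quasi-likelihood F-test (robust fit, legacy option on). P-values were Benjamini-Hochberg adjusted over all genes tested, and the threshold was 0.05. Standard errors of the quasi-likelihood fits were obtained as the size of the log2 fold change over the root of its F statistic. For DESeq2 its own standard errors were used. The tissue difference used all 11 libraries and the wild-type tissue contrast the 6 wild-type libraries. The fits were tested on simulated data with less spread between libraries than the real libraries had. Those runs therefore do not show how the fits behave at the real spread. In the real counts, dispersions corresponded to a biological coefficient of variation of 0.328 for the glands and 0.374 for the discs. Positions come from the deposited table of counts, and gene identifiers from the authors' salivary comparison table, matched on symbol. Strand, summed exon lengths and overlaps come from the Ensembl release 115 annotation of BDGP6. Overlapping genes on the opposite strand cannot be told apart in the non-directional salivary libraries. Counting error alone lets a gene with 0 counts in 1 library have up to 3.

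Besides the 9 members and Cap-D3, the text names genes of the wider pathway that passed the threshold, at most 4 per list and comparison by adjusted p, or the member of highest mean CPM where a list had none, and the 3 genes closest to Egfr in pattern. Spred and rho-4 in wing discs, genes named for an unadjusted p or a DESeq2 call, and the libraries that stood apart were named after their values were seen. The members and lists were chosen with earlier results of these data known. The wider lists gave 26 genes, Raf being listed as phl and Gap1 taken as a synonym of RasGAP1; rho-6 was not matched. Alternatives were RLE size factors, library totals, no filter on low counts, the newer dispersion estimate, the likelihood ratio test, DESeq2 1.42.0, 1 fit of all 11 libraries and leaving out each library, with length-corrected offsets and the omission of libraries that stood apart added after seeing the data. Other deposited lists of gene identifiers were not used.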

Additional observations from a re-analysis of the deposited data

How the results depend on the processing

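No paired analysis was possible because the replicate numbers follow accession order only and pair no libraries. In salivary glands the count of called members (2 of 9) became 0 in 1 fit of all 11 libraries and 0 without wild-type replicates 1 and 2 together, and ran from 0 to 2 when 1 library was left out; the other alternatives gave 2. The wider count (3 of 26) became 7 with DESeq2, 1 in 1 fit of all 11 libraries and 0 without wild-type replicates 1 and 2, and ran from 0 to 3 when 1 library was left out. In wing discs, without wild-type replicates 2 and 3, the member count of 0 became 1 and the wider count of 0 became 3 (rho-4, Ras85D and Spred). The tissue difference gave 1 member with DESeq2 and 2 with length-corrected offsets, against 0. The wild-type tissue contrast gave 9 members with library totals, against 5. Among all genes, salivary calls (961) became 2091 with DESeq2, 92 without wild-type replicates 1 and 2 and 310 to 1071 without 1 library. Wing calls (46) became 77 with the newer dispersion estimate, 464 with the likelihood ratio test, 583 with DESeq2, 140 in 1 fit of all 11 libraries, 238 with length-corrected offsets, 1384 without wild-type replicates 2 and 3 and 0 to 45 without 1 library. Tissue-difference calls (92) became 525 with the likelihood ratio test, 616 with DESeq2, 266 with length-corrected offsets, 12 without salivary wild-type replicates 1 and 2, 53 without wing wild-type replicates 2 and 3 and 7 to 262 without 1 library. Of the named genes' values under the alternatives, 509 kept direction and call, 33 lost a call, 11 gained one and 59 changed sign; the cause was not tested.

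The sign changes were in values that were not called. In salivary glands rho became 0.22 without wild-type replicates 1 and 2, and Krn ran from -0.04 to 0.22 without 1 library. In wing discs, without 1 library, Egfr ran from -0.69 to 0.24, vn from -0.62 to 0.18, aos from -0.17 to 0.20, pnt from -0.31 to 0.26, sty from -0.31 to 0.30 and kek1 from -0.61 to 0.37. With length-corrected offsets Egfr became 0.01, vn 0.03, pnt 0.19, sty 0.20 and kek1 0.10 in wing discs. Without wing wild-type replicates 2 and 3, Krn became -0.03 and kek1 3.7e-03. In wing discs aos became -0.02 with RLE size factors and with DESeq2, -0.05 with library totals, -4.6e-03 without the filter on low counts and -0.08 in 1 fit of all 11 libraries. For the tissue difference Krn became 0.03 with RLE size factors, with DESeq2 and without salivary wild-type replicates 1 and 2, and 0.05 with length-corrected offsets. Without salivary wild-type replicates 1 and 2, pnt and sty became -0.08 and kek1 -0.20, and without the filter pnt became -7.2e-04 and sty -0.06. Without 1 library that difference ran from -0.19 to 0.10 for Krn, -0.10 to 0.50 for pnt, -0.15 to 0.46 for sty and -0.09 to 0.89 for kek1. In the wild-type tissue contrast, RLE size factors and DESeq2 gave -0.18 for rho, -0.13 for pnt and -0.21 for sty, and length-corrected offsets -0.11 for rho. Without 1 library it ran from -0.09 to 0.18 for rho, -0.26 to 0.26 for pnt and -0.35 to 0.21 for sty. Depth limits vn and aos in salivary glands, where single libraries held 13 to 137 counts.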
